A study of Nothobranchius furzeri with 185 samples.

Results

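Glutamate carries most fast excitation in the vertebrate brain. AMPA receptors (gria genes) and kainate receptors (grik) are ion channels that open when glutamate binds, and NMDA receptors (grin) also need a co-agonist and relief of a magnesium block before they pass calcium. The delta receptors (grid) resemble these channels in sequence but act at synapses mainly by bridging to cerebellin and neurexin, while the metabotropic receptors (grm) are G protein coupled receptors that tune release and excitability. An NMDA receptor holds the obligatory GluN1 subunit, encoded by grin1, together with GluN2 or GluN3 subunits, and in mammals the balance of GluN2B and GluN2A shifts as the forebrain matures.

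The glutamate receptor loci of the turquoise killifish Nothobranchius furzeri, an annual fish with a short life span, were taken as every locus of the deposited gene table whose symbol starts with gria, grin, grik, grid or grm followed by a digit. This gave 56 of 23564 loci, namely 8 AMPA, 12 kainate, 12 NMDA, 8 delta and 14 metabotropic receptor loci plus 2 loci named grid2ipb. The grid2ipb loci match the rule by name but encode a scaffold protein that binds the delta receptor, and not a receptor subunit. The 56 loci carry 35 distinct symbols, and 34 of them share a symbol with at least 1 other locus. There are 5 loci named grik4, of 390 to 1798 bases, and pairs of loci named grin1a, grin2bb, gria2b and GRIK3. Loci that share a symbol may be parts of a gene or copies of it, and reads from near-identical copies may have been split between them, so each is given by its own identifier. For 26 of the loci the symbol rests on a reciprocal best match, per the deposited table, and for 30 on a match in one direction. No genome sequence or coordinates of the loci were used here.

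The brain libraries come from fish kept for 4 weeks in tank water with 15 pM rotenone, an inhibitor of mitochondrial complex I, or with the vehicle DMSO. The groups were 5 fish on rotenone from 23 weeks and sampled at 27 weeks (MR26 to MR30), 5 fish on DMSO over the same weeks (MC6 to MC10), and 5 fish on DMSO from 5 weeks and sampled at 9 weeks (MC1 to MC5). There was no rotenone group at 9 weeks, and strain and sex were not given in the sources used here. Liver and skin of the same 15 fish were sequenced too, as were liver and skin of untreated fish at 5, 12, 20, 27 and 39 weeks (5 libraries per tissue and age) and tail fin clips taken from 45 fish at 10 and again at 20 weeks. The fin fish fall into 3 groups of 15 by the age at which they later died, 57.3 to 71.9 weeks in group 3, 45.1 to 50.3 weeks in group 2 and 28.7 to 36.4 weeks in group 1. Each library is 1 tissue of 1 fish. The 15 brain libraries held 23694020 to 31698038 counts each, and all 185 libraries 14970721 to 54947376.

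In the brain 54 of the 56 loci had enough counts to be tested. The other two, among them GRID1 (2 of 2) Nfu_g_1_002925, had 0 counts in every library. Levels are given as the deposited RPKM, reads scaled by locus length and library total, which can be set side by side between loci. Fold changes are log2 values from edgeR's quasi-likelihood test on the deposited counts, and p-values are Benjamini-Hochberg adjusted over all loci tested, called at 0.05. The standard error (SE) given with a fold change was derived from that test. It is the absolute log2 fold change over the square root of the F statistic. A locus is said to rise, fall or change only where it passed that test.

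None of the 25 neuron, 16 astroglia or 14 oligodendrocyte marker loci was at 0 in every brain. The same held for 13 hepatocyte, 13 retina, 10 pituitary, 5 erythrocyte and 4 testis germ-cell marker loci, so this does not tell tissues apart. Summed hepatocyte markers, a list chosen after the data were seen, were 2481 to 4938 RPKM per brain, and their part was not tested. The vehicle brain MC10 stood apart from the other 27-week vehicle brains. Of 18375 loci with a mean of at least 1 CPM (a count scaled to the library total) in MC6 to MC9, 23.6% were at least 2-fold lower in MC10, and this held for 32 of the 54 glutamate receptor loci. MC10 was the lowest of the 5 vehicle brains of 27 weeks at 46 of the 54 loci and the highest at 5. The shares of all loci at which it was lowest or highest are not given here, so this is not shown to be particular to the receptors. The summed RPKM of neuron markers in MC10 was 2234, the lowest of all 15 brains, against 2653 to 3649 in the others. Its summed erythrocyte markers (2310) and astroglia markers (4703) were the highest of all. Their part in the results was not tested. The main counts and fold changes that use the 27-week vehicle group are therefore given with all 5 of its brains and again without MC10. In bulk brain RNA, fewer cells of a type and less RNA per cell cannot be told apart.

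Levels differed widely among the receptor loci, and 52 of the 56 loci reached a mean of 1 RPKM in some brain group. The NMDA subunit locus grin1a Nfu_g_1_018335, of 2706 bases, led with a mean of 180.3 RPKM. Next came the AMPA subunit gria2b Nfu_g_1_004749 at 80.3 RPKM, then grin1a Nfu_g_1_017230 at 43.4, gria2b Nfu_g_1_013739 at 43.3 and grm3, a metabotropic receptor that lowers cyclic AMP, at 42.0 RPKM. The last 3 of these differed by less than their spread between brains. The loci named as kainate receptors were led by GRIK3 Nfu_g_1_011050 at 14.9 RPKM. RefSeq lists 1 gene named for grik2, 2 for grm5 and 1 for grm7, while the deposited table has 0 loci under these names. Such genes may be missing there or stand under another symbol. Family ranks, shares and sums therefore cover the named loci only. Of the scaffold loci, grid2ipb Nfu_g_1_023067 was the higher at 22.6 RPKM.

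**Figure D1:**
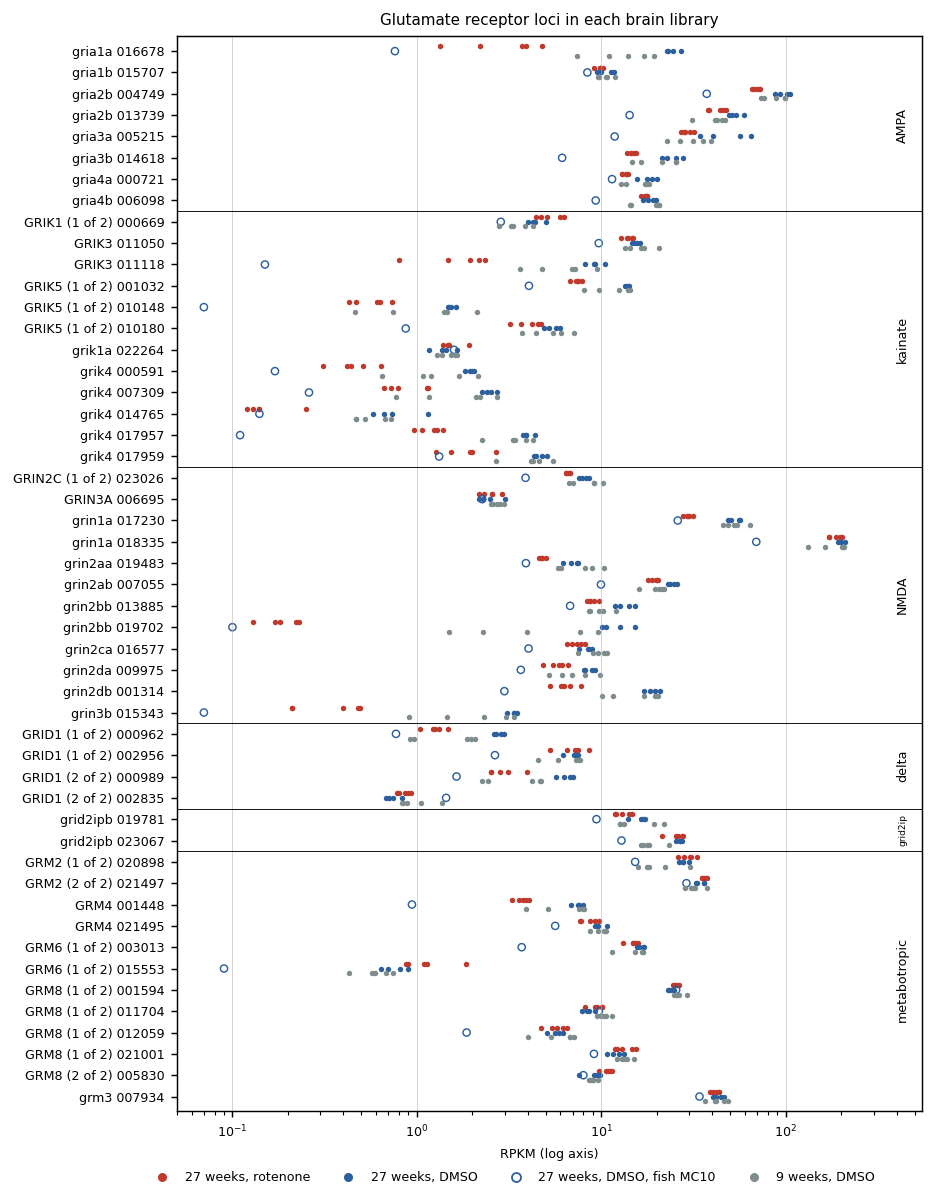
Deposited RPKM on a log axis of 50 of the 54 glutamate receptor loci with counts in the brain, by family, in 5 rotenone brains of 27 weeks, 5 DMSO brains of 27 weeks and 5 DMSO brains of 9 weeks. Each point is 1 brain and the open circle is MC10, which was the lowest vehicle brain of 27 weeks at 44 of the 50 loci drawn.

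Set against DMSO brains of 27 weeks, rotenone brains of 27 weeks had 8 of the 54 tested loci lower and 0 higher. Of all loci tested, 5.43% fell and 3.26% rose. The 8 are 4 NMDA subunit loci, 3 of the 5 grik4 loci and the AMPA subunit gria1a. No delta or metabotropic receptor locus passed the test. The median log2 fold change of the 54 loci was -0.16, against -0.03 over all loci, and 37 of the 54 had a negative value. DESeq2 called 14 loci lower and 1 higher in the same comparison. The 2 control sets give different counts: without MC10, 28 loci fell and 2 rose, while over all loci tested 17.8% fell and 14.7% rose. The 28 hold 6 AMPA, 8 kainate, 9 NMDA, 3 delta and 2 metabotropic receptor loci. The 8 calls made with all brains are among these 28. Leaving out a single brain other than MC10 left 4 or 5 calls for MC6 to MC9, MR26, MR27, MR29 and MR30. No share over all loci is given here for DESeq2 or for these last fits, so their counts cannot be set against one.

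Among AMPA receptors, gria1a Nfu_g_1_016678, which encodes a GluA1-type pore subunit, fell with rotenone. It stood at 3.70, 2.20, 4.76, 3.92 and 1.33 RPKM in the rotenone brains, against 27.1, 22.7, 24.4 and 23.0 RPKM in vehicle brains MC6 to MC9 of 27 weeks and 0.76 RPKM in MC10. The 9-week vehicle brains had 19.2, 7.42, 10.97, 17.1 and 13.9 RPKM. Every rotenone brain lay below every vehicle brain of either age except MC10, which lay below all of them. The log2 fold change against vehicle at 27 weeks was -2.63 (SE 0.61, adjusted p = 0.018), or -2.95 (SE 0.33, adjusted p = 2.3e-05) without MC10. Against vehicle at 9 weeks it was -2.11 (SE 0.60, adjusted p = 0.045). The means compared there do not include MC10, but the spread was estimated from all 15 brains, MC10 among them. The first call was lost without MR27 (-2.52), and the last without any 1 of its 10 libraries except MC2 (-2.3 to -1.92). Its partner copy gria1b held 9.10 to 10.2 RPKM in rotenone brains, 8.4 to 11.7 RPKM in vehicle brains of 27 weeks and 9.55 to 11.8 RPKM at 9 weeks, and the groups overlapped.

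The most abundant AMPA subunit locus, gria2b Nfu_g_1_004749, encodes a GluA2-type subunit, the one that in mammals keeps AMPA receptors impermeable to calcium when its transcript is edited. It stood at 71.9, 72.4, 65.7, 66.0 and 68.6 RPKM in rotenone brains. Vehicle brains MC6 to MC9 of 27 weeks had 105, 93.6, 102 and 87.3 RPKM and MC10 37.3 RPKM, and the 9-week vehicle brains had 98.8, 76.1, 73.4, 98.8 and 88.0 RPKM. Rotenone brains lay below MC6 to MC9 and above MC10, and all 5 lay below the 9-week brains. The fall passed the test only when MC10 was left out (log2 fold change -0.50, SE 0.10, adjusted p = 0.0013). It made up 34.6 ± 1.18% of the summed AMPA receptor RPKM in rotenone brains, 33.9 ± 2.27% in vehicle brains of 27 weeks (33.0 ± 1.17% without MC10) and 36.7 ± 1.91% in those of 9 weeks (SD, n = 5 each, or 4 without MC10).

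Kainate receptors had the lowest median log2 fold change of the 5 receptor families, -1.11. Each of the 5 grik4 loci, named for the GluK4 subunit that joins other kainate subunits, fell without MC10, and 3 of them also with it. For grik4 Nfu_g_1_014765 the rotenone brains had 0.13, 0.14, 0.25, 0.14 and 0.12 RPKM, against 0.58, 0.66, 1.15 and 0.73 RPKM in MC6 to MC9, 0.14 RPKM in MC10, and 0.67, 0.47, 0.47, 0.72 and 0.52 RPKM in vehicle brains of 9 weeks. All rotenone brains lay below the vehicle brains of both ages other than MC10. The log2 fold change was -2.07 (SE 0.40, adjusted p = 0.008), or -2.32 (SE 0.29) without MC10, and -1.86 (SE 0.40, adjusted p = 0.014) against 9 weeks. The locus grik4 Nfu_g_1_000591 gave -1.78 (SE 0.47, adjusted p = 0.031), or -2.07 without MC10, and grik4 Nfu_g_1_017959 gave -1.09 (SE 0.30, adjusted p = 0.035), or -1.31 without MC10. These loci are low: the highest value of any grik4 locus in a brain was 5.5 RPKM. Both of these calls were lost without any 1 of MC6 to MC9, MR26, MR27, MR29 and MR30, and that of Nfu_g_1_000591 also without MR28, with log2 fold changes of -1.92 to -1.66 and -1.12 to -0.98. Whether the 5 grik4 loci are separate genes is unresolved. RefSeq lists 1 grik4 gene, and 0 of its identifiers could be matched to the deposited loci. If the 5 loci are parts of 1 gene, the kainate counts and median hold that gene more than once.

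The 2 GRIK3 loci, named for a low-affinity kainate subunit, differed. At GRIK3 Nfu_g_1_011118 the rotenone brains had 2.35, 1.47, 2.17, 1.93 and 0.80 RPKM, vehicle brains MC6 to MC9 had 10.4, 9.25, 9.16 and 8.17 RPKM, MC10 had 0.15 RPKM, and vehicle brains of 9 weeks had 9.44, 3.63, 4.79, 7.17 and 6.97 RPKM. Rotenone brains again lay between MC10 and all other vehicle brains. With all brains the log2 fold change of -2.10 (SE 0.63) did not pass (adjusted p = 0.051), and without MC10 it was -2.42 (SE 0.29, adjusted p = 4e-05). The more abundant GRIK3 Nfu_g_1_011050 held 12.8 to 14.8 RPKM in rotenone brains, 9.68 to 16.3 RPKM in vehicle brains of 27 weeks and 13.5 to 20.6 RPKM at 9 weeks, and the groups overlapped.

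**Figure D2:**
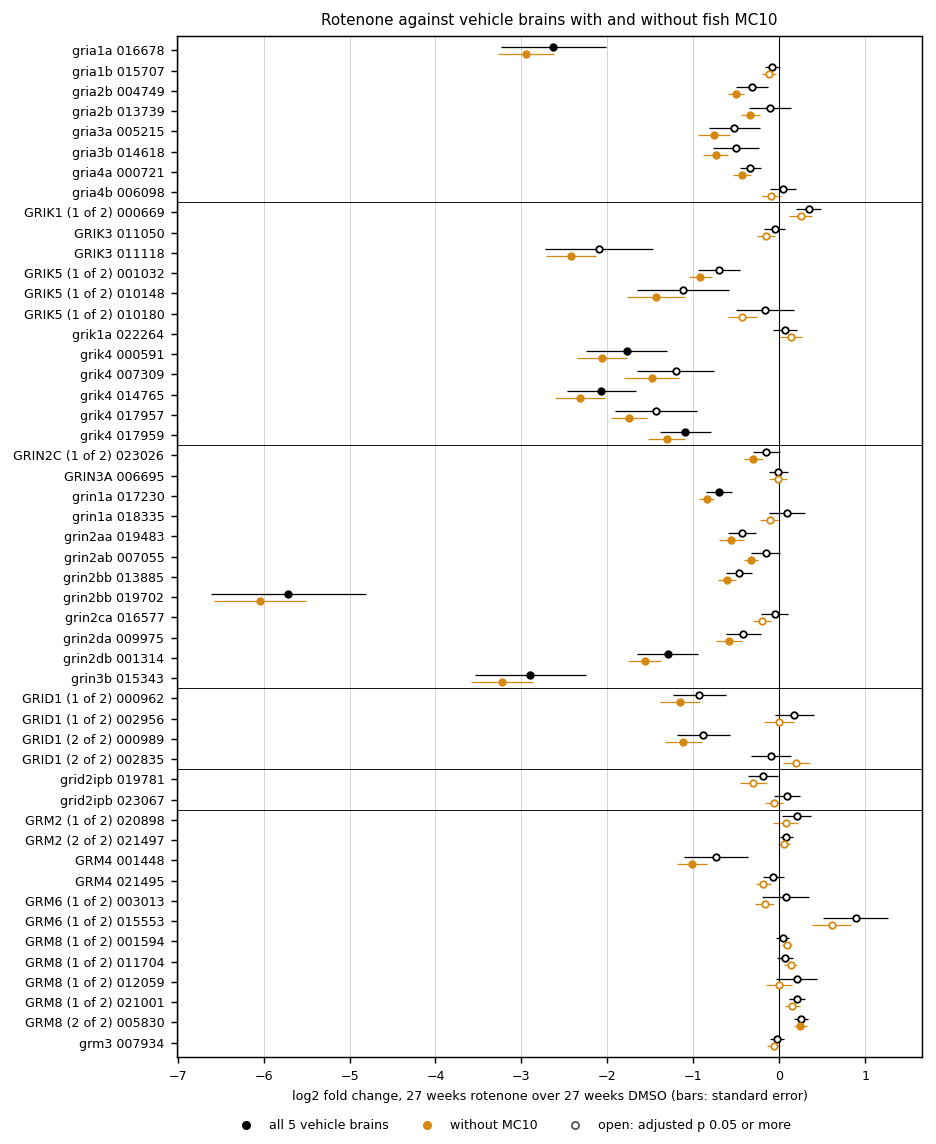
Log2 fold change with its SE (bars) of 50 of the 54 tested glutamate receptor loci, rotenone against DMSO at 27 weeks, with all 5 vehicle brains (black) and without MC10 (orange). Filled points passed the test at an adjusted p of 0.05 and open points did not: of the loci drawn, 8 fell with all brains, and 26 fell and 1 rose without MC10.

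The largest change in the family was at an NMDA subunit locus. grin2bb Nfu_g_1_019702, of 5088 bases and named for GluN2B, had 0.23, 0.17, 0.18, 0.22 and 0.13 RPKM in rotenone brains, against 15.3, 10.5, 12.6 and 10.1 RPKM in MC6 to MC9, 0.10 RPKM in MC10, and 7.66, 1.5, 2.29, 9.65 and 3.95 RPKM in vehicle brains of 9 weeks. All rotenone brains stood close to the level of MC10 and far below every other vehicle brain. The log2 fold change was -5.71 (SE 0.90, adjusted p = 0.0044) with all vehicle brains and -6.05 (SE 0.53, adjusted p = 5.4e-06) without MC10. Against vehicle at 9 weeks it was -4.76 (SE 0.87, adjusted p = 0.0069).

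The longer grin2bb locus, Nfu_g_1_013885 of 17060 bases, changed far less. It had 8.64, 9.67, 8.36, 8.64 and 9.13 RPKM in rotenone brains, 15.2, 12.6, 14.2 and 11.8 RPKM in MC6 to MC9, 6.77 RPKM in MC10, and 11.9, 8.64, 8.54, 10.2 and 9.76 RPKM at 9 weeks. Rotenone brains lay below MC6 to MC9 but overlapped the 9-week brains. The log2 fold change was -0.47 (SE 0.15, adjusted p = 0.065) with all vehicle brains, -0.61 (SE 0.10, adjusted p = 0.00043) without MC10 and -0.15 (SE 0.15, adjusted p = 0.62) against 9 weeks.

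The pair of loci named for the obligatory GluN1 subunit also differed. grin1a Nfu_g_1_017230, of 13125 bases, had 31.4, 27.8, 29.9, 29.4 and 29.1 RPKM in rotenone brains, against 56.2, 48.6, 50.3 and 55.6 RPKM in MC6 to MC9, 26.0 RPKM in MC10, and 54.6, 52.6, 45.6, 64.3 and 48.9 RPKM at 9 weeks. It fell with all vehicle brains (log2 fold change -0.70, SE 0.15, adjusted p = 0.012), without MC10 (-0.84, SE 0.09, adjusted p = 1.4e-05) and against 9 weeks (-0.85, SE 0.15, adjusted p = 0.0057). grin1a Nfu_g_1_018335, of 2706 bases, had 196, 203, 173, 188 and 172 RPKM in rotenone brains, 208, 200.01, 191 and 197 RPKM in MC6 to MC9, 69.2 RPKM in MC10, and 207, 133, 162, 204 and 202 RPKM at 9 weeks. Its groups overlapped, and its log2 fold change was 0.09 (SE 0.21, adjusted p = 0.84), or -0.11 (SE 0.11, adjusted p = 0.50) without MC10. The shorter locus made up 66.9 ± 1.36% of the summed NMDA receptor RPKM in rotenone brains, against 54.9 ± 1.81% in vehicle brains of 27 weeks (55.6 ± 1.1% without MC10) and 56.1 ± 2.69% in those of 9 weeks (SD, n = 5 each, or 4 without MC10, no test).

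The other NMDA loci that fell with all brains were grin3b and grin2db. grin3b, named for a glycine-binding GluN3 subunit, had 0.49, 0.21, 0.48, 0.40 and 0.21 RPKM in rotenone brains, 3.35, 3.36, 3.47 and 3.08 RPKM in MC6 to MC9, 0.07 RPKM in MC10 and 3.36, 0.91, 1.46, 3.04 and 2.3 RPKM at 9 weeks (log2 fold change against 27 weeks -2.90, SE 0.65, adjusted p = 0.015, or -3.22 without MC10). grin2db, named for GluN2D, had 7.76, 6.04, 6.79, 6.28 and 5.30 RPKM in rotenone brains, 18.3, 19.5, 20.8 and 17.02 RPKM in MC6 to MC9, 2.98 RPKM in MC10 and 20.4, 10.0, 11.5, 19.6 and 17.1 RPKM at 9 weeks (log2 fold change against 27 weeks -1.30, SE 0.36, adjusted p = 0.036, or -1.57 without MC10). The call at grin2db was lost without any 1 of the 27-week brains other than MC10 (-1.37 to -1.17), while grin3b was called in each of these settings. At both, each rotenone brain lay below all vehicle brains of both ages other than MC10. Of the GluN2A loci, grin2aa had 4.6 to 5.0 RPKM in rotenone brains, 6.17 to 7.51 RPKM in MC6 to MC9, 3.90 RPKM in MC10 and 5.80 to 10.4 RPKM at 9 weeks. Its log2 fold change of -0.44 (SE 0.16, adjusted p = 0.11) did not pass with all brains, and -0.56 (SE 0.14, adjusted p = 0.0078) did without MC10. grin2ab had 17.97 to 20.4 RPKM in rotenone brains, 23.1 to 25.6 RPKM in MC6 to MC9, 9.95 RPKM in MC10 and 16.01 to 21.8 RPKM at 9 weeks, and fell without MC10 (-0.33, SE 0.08, adjusted p = 0.0056).

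**Figure D3:**
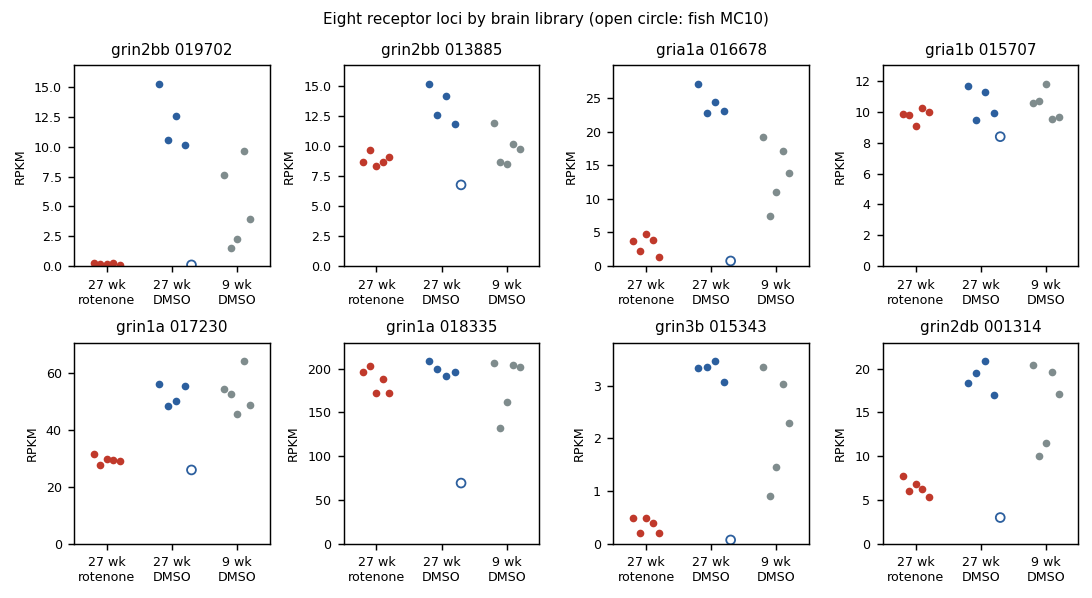
Deposited RPKM in each brain of 8 glutamate receptor loci, in rotenone at 27 weeks, DMSO at 27 weeks and DMSO at 9 weeks (5 brains each), with 1 point per brain and MC10 as an open circle. At gria1a and grin2bb Nfu_g_1_019702 the rotenone brains lie near MC10 and below the other vehicle brains.

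The summed RPKM of the GluN2A loci over that of the GluN2B loci was taken per brain on a log2 scale. It was 1.48, 1.31, 1.46, 1.52 and 1.3 in rotenone brains, 0.02, 0.40, 0.24 and 0.53 in MC6 to MC9 with 1.01 in MC10, and 0.61, 1.1, 1.23, 0.68 and 1.1 in vehicle brains of 9 weeks. All 5 rotenone brains were above all 10 vehicle brains, and MC10 was the highest of the 27-week vehicle brains. The GluN2B sum holds both grin2bb loci, which differed. Nfu_g_1_019702 had 0.13 to 0.23 RPKM in rotenone brains against 1.5 to 9.65 RPKM at 9 weeks. Nfu_g_1_013885 had 8.36 to 9.67 RPKM against 8.54 to 11.9 RPKM, with overlap. The full separation does not hold without Nfu_g_1_019702. The 9-week vehicle brain MC3 had more GluN2A (25.47 RPKM) than rotenone brain MR29 (25.36 RPKM). It also had less Nfu_g_1_013885 (8.54 against 8.64 RPKM), so over that locus alone MC3 lies above MR29. The ratio is a description, since the loci that enter it were already compared one by one.

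Delta and metabotropic receptors passed the test only without MC10. Of the 6 delta loci tested, 3 then fell and 1 rose. GRID1 (1 of 2) Nfu_g_1_000962 fell (log2 fold change without MC10 -1.15, SE 0.23, adjusted p = 0.0017), as did GRID1 (2 of 2) Nfu_g_1_000989 (-1.12, SE 0.21, adjusted p = 0.0012).

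Among metabotropic receptors, grm3 had 43.5, 43.4, 40.5, 41.7 and 38.9 RPKM in rotenone brains, 46.4, 44.7, 40.3 and 41.9 RPKM in MC6 to MC9, 34.0 RPKM in MC10 and 48.6, 42.0, 46.4, 36.6 and 41.5 RPKM at 9 weeks, with overlap throughout. Without MC10, 2 metabotropic loci fell and 1 rose. GRM4 Nfu_g_1_001448 had 3.27 to 4.06 RPKM in rotenone brains, 6.81 to 8.0 RPKM in MC6 to MC9, 0.94 RPKM in MC10 and 3.90 to 8.03 RPKM at 9 weeks. The locus that rose was GRM8 (2 of 2), named for a presynaptic receptor that limits glutamate release (log2 fold change 0.24, SE 0.08, adjusted p = 0.025). GRM8 (2 of 2) had 9.66 to 11.4 RPKM in rotenone brains, 7.52 to 9.85 RPKM in MC6 to MC9 and 7.99 RPKM in MC10. With MC10 its value was 0.25 (adjusted p = 0.056). The median log2 fold change of the 14 metabotropic loci was 0.08 with all brains and 0.07 without MC10, against -1.11 and -1.37 for the 12 kainate loci. Summed over the family, metabotropic receptors held 238 ± 10.1 RPKM in rotenone brains, 228 ± 31.6 RPKM in vehicle brains of 27 weeks (242 ± 5.63 without MC10) and 235 ± 16.7 RPKM in those of 9 weeks. The kainate sum was 39.2 ± 1.97 RPKM in rotenone brains, 56.4 ± 19.7 RPKM in vehicle brains of 27 weeks (65.2 ± 1.35 without MC10) and 57.4 ± 12.0 RPKM in those of 9 weeks (SD, n = 5 each, or 4 without MC10).

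Set against vehicle at 9 weeks, so with age and rotenone changed together, rotenone brains had 8 loci lower and 1 higher, while 4.69% of all loci were lower and 3.02% higher. Of the 8, 7 had also fallen against vehicle at 27 weeks. Without any 1 of MR26, MR27, MR29, MR30, MC1, MC4 and MC5, 4 or 5 loci were called in place of 9. grin2aa was the one of the 8 that had not (log2 fold change -0.72, SE 0.16, adjusted p = 0.018). The single locus that was higher was GRIK1 (1 of 2), a kainate subunit, with 6.25, 4.45, 4.73, 5.97 and 5.05 RPKM in rotenone brains against 3.24, 2.79, 3.85, 4.24 and 3.31 RPKM in vehicle brains of 9 weeks, with no overlap (log2 fold change 0.60, SE 0.15, adjusted p = 0.025). No locus was called higher without MR26, MR29, MR30, MC2 or MC5.

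Loci low in rotenone brains tended to be low in MC10 as well. Relative to the mean of MC6 to MC9, MC10 was 121-fold lower at grin2bb Nfu_g_1_019702, 61.7-fold at GRIK3 Nfu_g_1_011118, 47.4-fold at grin3b, 36.2-fold at grik4 Nfu_g_1_017957 and 32.0-fold at gria1a. Across the 54 loci, the log2 difference of MC10 from MC6 to MC9 and the log2 fold change of rotenone against vehicle at 9 weeks, which share no library, had Pearson's r = 0.78 and Spearman's rho = 0.62. Loci are not independent replicates, and the value describes these libraries only.

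**Figure D4:**
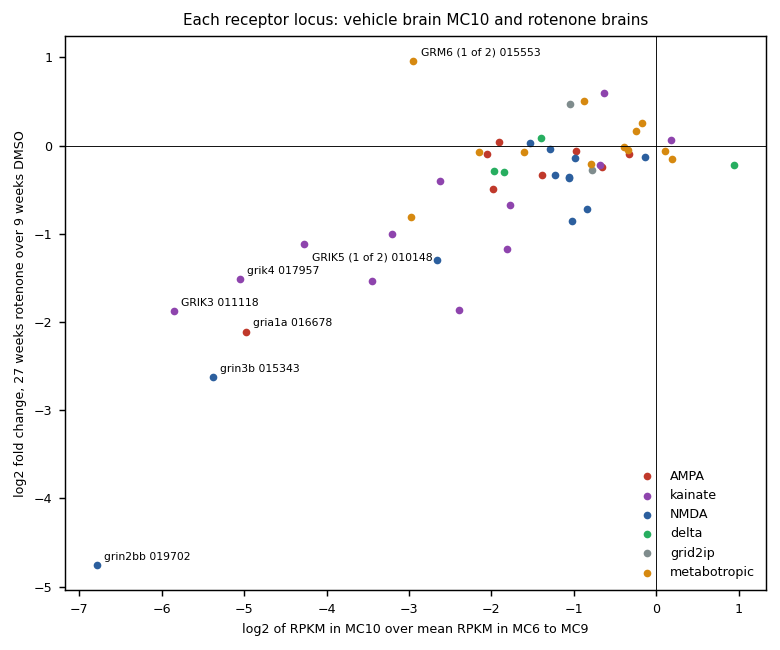
Each point is 1 of 50 of the 54 tested glutamate receptor loci: the log2 difference of brain MC10 from the mean of MC6 to MC9 (x axis) against the log2 fold change of rotenone at 27 weeks over DMSO at 9 weeks (y axis). The locus lowest in MC10, grin2bb Nfu_g_1_019702, also has the lowest rotenone value, while GRM6 (1 of 2) Nfu_g_1_015553, low in MC10, lies above 0 on the rotenone axis (Pearson's r = 0.78 over all 54).

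Loci outside the family were set beside these. There were 1167 loci at least 8-fold lower in MC10 than in MC6 to MC9, 6.35% of those with 1 CPM or more, and 10 of them were glutamate receptor loci, including 4 of the 8 that fell with rotenone. Over the MC10-low loci outside the family, the median log2 difference from MC6 to MC9 was -1.27 to -1.99 in the 5 rotenone brains, against -3.68 in MC10. In the vehicle brains of 9 weeks it was -0.12, -1.25, -0.80, -0.09 and -0.42 for MC1 to MC5, so MC2 and MC3 were lower at these loci than their group mates. These loci were picked for being high in MC6 to MC9 and low in MC10, which fixes a low value in MC10. That choice can by itself place any other library below MC6 to MC9, so the values do not show a likeness between MC10 and the rotenone brains. In a comparison chosen after the data were seen, MC10 was left out. Each library's trend on the log2 difference of MC10 from the mean of the 9-week vehicle brains was also removed. That difference includes the difference in age, and the 9-week brains were in the same fit. Then 21 glutamate receptor loci fell and 6 rose, with 15.6% of all loci falling and 15.7% rising, and the 8 loci that fell with all brains were among the 21. Whether what set MC10 apart also acted in the rotenone brains was not tested.

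Age alone, vehicle at 27 weeks against vehicle at 9 weeks, gave 0 calls among the 54 loci in edgeR's quasi-likelihood test with all brains, where 1.2% of all loci rose and 0.889% fell. At an unadjusted p under 0.05 there were 5 loci, DESeq2 called 0, and the lowest adjusted p was 0.119. Without MC10, 7 loci rose and 2 fell, beside 8.19% rising and 8.33% falling among all loci. With both directions counted, the calls among the 54 loci lay near the share over all loci. By direction, rises lay above their share and falls below it, and this difference was not tested. Of the 7 loci that rose, 1 was the scaffold locus grid2ipb Nfu_g_1_023067, which is not a receptor locus. The largest rises were at the delta receptor loci GRID1 (1 of 2) Nfu_g_1_000962 (log2 fold change 0.84, SE 0.23, adjusted p = 0.024) and GRID1 (2 of 2) Nfu_g_1_000989 (0.82, SE 0.21, adjusted p = 0.019).

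The AMPA subunit gria3a also rose with age without MC10 (log2 fold change 0.66, SE 0.18, adjusted p = 0.026). It had 64.4, 40.3, 56.7 and 34.1 RPKM in MC6 to MC9 and 11.8 RPKM in MC10, against 31.6, 22.6, 26.5, 39.4 and 35.6 RPKM at 9 weeks, so MC9 lay within the younger group. The scaffold grid2ipb Nfu_g_1_023067 had 27.3, 25.4, 26.6 and 26.8 RPKM in MC6 to MC9 and 12.9 RPKM in MC10, against 23.4, 16.7, 16.4, 18.1 and 17.8 RPKM at 9 weeks (log2 fold change without MC10 0.52, SE 0.10, adjusted p = 0.0048). Without MC10 the older brains all lay above the younger ones at this locus. The rotenone brains had 27.5, 27.8, 21.2, 26.1 and 25.5 RPKM there, within the range of MC6 to MC9 apart from 1 lower and 2 higher brains.

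The other rises without MC10 were smaller: grin2bb Nfu_g_1_013885 by 0.46 (SE 0.10), gria2b Nfu_g_1_013739 by 0.38 (SE 0.11) and grin2ab by 0.29 (SE 0.08) on the log2 scale. Of the 2 loci that fell, both metabotropic, GRM8 (1 of 2) Nfu_g_1_011704 fell by 0.28 (SE 0.08, adjusted p = 0.022), with 7.83 to 9.26 RPKM in MC6 to MC9 and 9.69 RPKM in MC10 against 9.47 to 11.4 RPKM at 9 weeks. The age and rotenone comparisons share the 27-week vehicle brains. Without MC10, gria3a was 0.66 higher with age and 0.76 lower with rotenone on the log2 scale, and in rotenone brains against 9 weeks it stood at -0.10 (SE 0.29, adjusted p = 0.89). The rotenone brains had 30.2, 31.6, 27.1, 28.2 and 28.4 RPKM of gria3a, within the range of the 9-week brains.

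Other genes of the glutamate synapse were taken from lists by role, whose counts stand beside 5.43% of all loci falling and 3.26% rising with rotenone when all brains were used, and 17.8% falling and 14.7% rising without MC10. Of 25 auxiliary subunits of AMPA and kainate receptors, 4 fell and 1 rose with rotenone at 27 weeks (9 and 4 without MC10). Those named are cacng3b, a TARP that carries AMPA receptors to the synapse (log2 fold change -3.57, SE 0.64, adjusted p = 0.0061, or -3.89 without MC10), and shisa9, which shapes AMPA currents (-4.0, SE 0.80, adjusted p = 0.0091, or -4.33 without MC10). Of 33 postsynaptic scaffold loci, 11 fell and 3 rose (17 and 4 without MC10). The median log2 fold change of this list was -0.29, or -0.39 without MC10. Against that direction, homer1b Nfu_g_1_009483, a scaffold of the postsynaptic density, was 1 of the 3 that rose (0.47, SE 0.08, adjusted p = 0.0056, or 0.43 without MC10).

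Of 24 loci for glutamate supply and uptake, 1 fell and 1 rose with rotenone (4 and 4 without MC10). The transporter slc1a8a rose (log2 fold change 2.02, SE 0.34, adjusted p = 0.0048, or 1.94 without MC10) and the neuronal transporter slc1a1 fell (-0.37, SE 0.10, adjusted p = 0.038, or -0.44 without MC10). The counts for supply and uptake without MC10 lie near the shares over all loci. Of 14 loci of the delta receptor bridge, 0 changed by edgeR's quasi-likelihood test with all brains and 4 fell and 2 rose without MC10. Inhibitory receptors of the GABA-A and glycine families were set beside them: 4 of 28 fell and 0 rose (13 and 0 without MC10), led by GABRG3 Nfu_g_1_015998 (-6.10, SE 0.85, adjusted p = 0.0034, or -6.42 without MC10). Falls were therefore not confined to glutamate receptors. With age and all brains, 1.2% of all loci rose and 0.889% fell. Beside these low shares, none of the 24 supply, 25 auxiliary, 33 scaffold or 28 inhibitory loci passed, and 1 of the 14 bridge loci, nrxn2b, fell (-0.29, SE 0.07, adjusted p = 0.034).

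Marker lists of other cells were tested in the same fits. With rotenone, 2 of 25 neuron marker loci fell and 1 rose (9 and 4 without MC10), to be read against the same shares over all loci, which the count with all brains lies near. syn1 Nfu_g_1_004412, a synaptic vesicle protein, fell by 2.83 (SE 0.60) on the log2 scale, or by 3.15 without MC10. The other syn1 locus, Nfu_g_1_019929, did not pass (log2 fold change 0.17, SE 0.14, or 0.23 without MC10). SV2A fell by 0.28 (SE 0.08), or by 0.32 without MC10, and snap25a rose by 0.31 (SE 0.09), or by 0.30 without MC10. The summed neuron markers were 3126 to 3649 RPKM in rotenone brains, 2234 to 3311 RPKM in vehicle brains of 27 weeks and 2653 to 3376 RPKM in those of 9 weeks. The rotenone brains were not low in this sum, in which the most abundant loci weigh most. By locus and without MC10, however, the 9 of 25 that fell exceed the 17.8% of all loci that fell. The median log2 fold change of the list was then -0.11, and -0.07 with all brains. None of 14 astroglia, 14 oligodendrocyte, 9 cerebellum, 10 pituitary, 10 retina, 10 skeletal muscle or 4 erythrocyte loci changed with rotenone when all brains were used, and without MC10 at most 3 of any of these lists did. Of 11 microglia and macrophage loci, 1 fell with rotenone (3 without MC10) and 3 rose with age (5 without MC10), the complement gene c1qc by 1.66 (SE 0.24) with age. Of 17 immediate early genes, 3 fell with rotenone (7 without MC10). With age and all brains 1 neuron marker (elavl3) and 1 cerebellum marker (barhl1b) fell, beside 0.889% of all loci falling and 1.2% rising. With age and without MC10, the setting in which receptor loci passed, 4 of 14 oligodendrocyte, 4 of 25 neuron, 3 of 10 cerebellum, 2 of 14 astroglia and 2 of 4 erythrocyte loci fell, and 1 neuron locus and 4 of 17 immediate early genes rose, beside 8.33% of all loci falling and 8.19% rising. Rotenone brains against 9 weeks had 3 of 14 oligodendrocyte loci lower, beside 4.69% of all loci lower. Summed oligodendrocyte markers were 3426 to 6034 RPKM in rotenone brains, 4426 to 6344.5 RPKM in vehicle brains of 27 weeks and 7184 to 9091 RPKM at 9 weeks. The vehicle brains of 27 weeks thus overlapped the rotenone brains and also lay below those of 9 weeks. The part of these markers in the receptor results was not tested. The pituitary sum ran from 1082 to 4339 RPKM in rotenone brains, 23.4 to 2086 RPKM in vehicle brains of 27 weeks and 4.21 to 488 RPKM in those of 9 weeks, and its part in the receptor results was not tested.

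Outside the brain the family was low. A locus was tested between tissues if its counts in brain, liver or skin passed the filter, so brain counts alone could admit it. Loci admitted in that way could hardly be found lower in brain. In the 5 vehicle fish of 9 weeks, each of the 54 tested loci was higher in brain than in skin, where 39.1% of all loci were higher and 36.1% lower in brain, with a median log2 difference of 6.42. The largest differences were at gria2b Nfu_g_1_013739 (10.21, SE 0.41), GRM2 (2 of 2) (9.85, SE 0.46) and GRM2 (1 of 2) (9.34, SE 0.48). Against liver, 46 loci were higher and 5 lower in brain, beside 43% higher and 36.1% lower among all loci, and the median was 7.13. The largest differences were at GRM8 (1 of 2) Nfu_g_1_012059 (11.14, SE 0.64), GRM8 (1 of 2) Nfu_g_1_001594 (9.26, SE 0.43) and GRID1 (1 of 2) Nfu_g_1_002956 (9.10, SE 0.62). In all, 9 of the 56 loci reached a group mean of 1 RPKM in liver, skin or fin.

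The 5 loci lower in brain than in liver were gria3a, 3 grik4 loci and GRID1 (2 of 2) Nfu_g_1_000989. grik4 Nfu_g_1_000591 had 1.69, 0.65, 1.08, 2.14 and 1.19 RPKM in brain at 9 weeks, against 0.70 to 4.06 RPKM with a median of 2.13 in liver, and a log2 difference of -2.24 (SE 0.45, adjusted p = 0.0003). In skin of the same fish it held at most 0.05 RPKM. gria3a had 22.6 to 39.4 RPKM in brain and 19.6 to 34.0 RPKM in liver, so its RPKM ranges overlapped, while its log2 difference was -1.34 (SE 0.16). The count fit scales each library by its loci in common (TMM), and RPKM does not, so between brain and liver the scales part by this much.

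**Figure D5:**
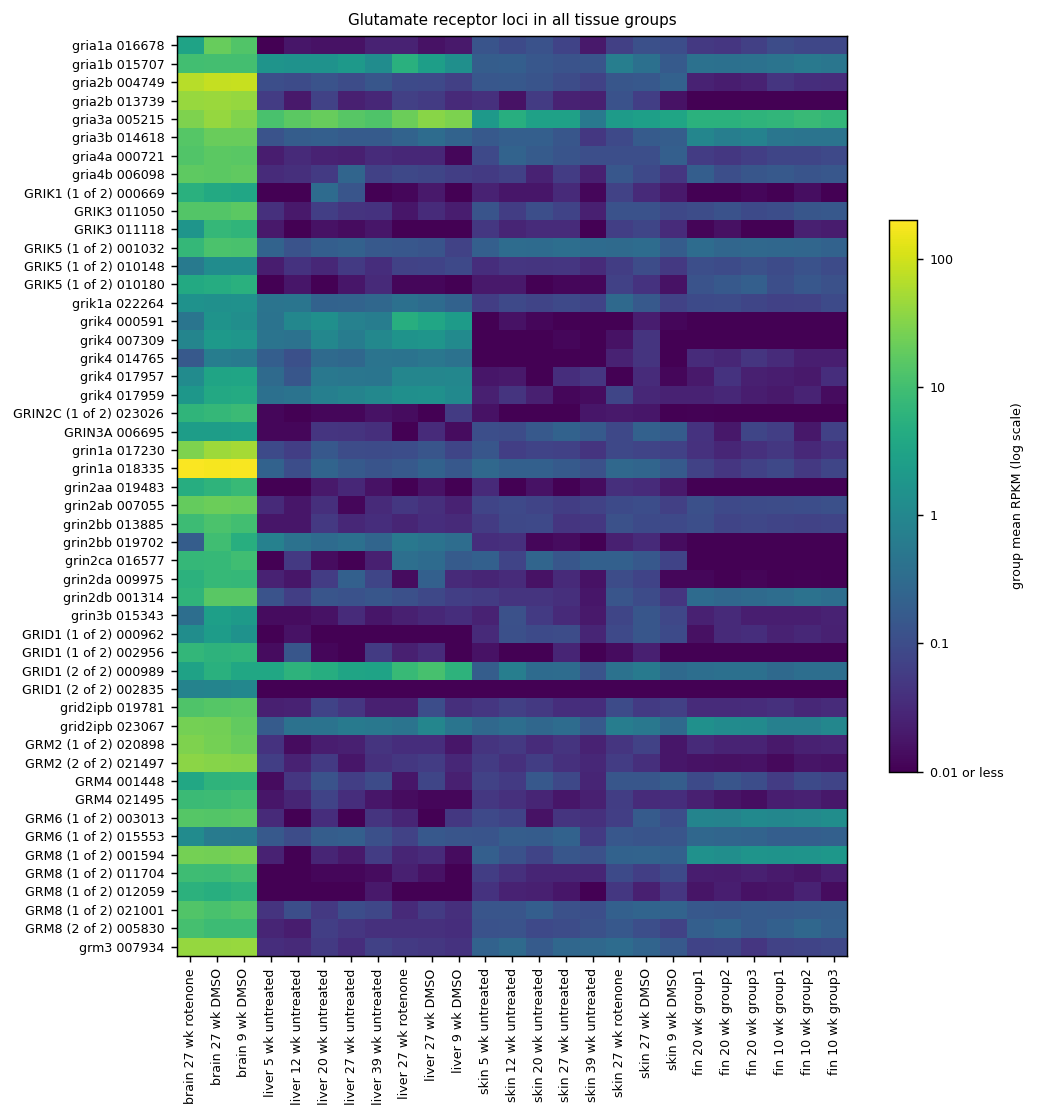
Group mean of the deposited RPKM (colour, log scale) of 50 glutamate receptor loci in the 25 groups of brain, liver, skin and tail fin. Brain columns are high for nearly all loci, and gria3a is the locus with the highest level in liver.

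In liver, gria3a was the most abundant receptor locus. It had 12.3, 23.0, 25.7, 20.2 and 24.8 RPKM in livers of rotenone fish, against 39.0, 40.6, 36.1, 31.6 and 22.6 RPKM in livers of vehicle fish of 27 weeks, and 30.8, 19.6, 31.6, 34.0 and 27.4 RPKM at 9 weeks. The rotenone livers lay below 4 of the 5 vehicle livers of 27 weeks. The lowest of those 5, MC10, lay among the rotenone livers, and 1 vehicle liver of 9 weeks (19.6 RPKM) was lower still. Of 25 loci tested in liver, 3 fell with rotenone and 0 rose, while 12% of all loci fell and 13.9% rose. The count that fell is thus no larger than the share over all loci, and only 1 of the 3 is a receptor locus. The 3 are gria3a (log2 fold change -0.63, SE 0.17, adjusted p = 0.018) and both grid2ipb loci, Nfu_g_1_019781 (-1.93, SE 0.35, adjusted p = 0.0022) and Nfu_g_1_023067 (-0.98, SE 0.22, adjusted p = 0.0064).

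grid2ipb Nfu_g_1_023067 had 0.33, 0.30, 0.43, 0.56 and 0.61 RPKM in rotenone livers, 0.67, 1.55, 1.05, 0.99 and 0.51 RPKM in vehicle livers of 27 weeks and 0.68, 0.27, 0.52, 0.40 and 0.44 RPKM at 9 weeks. The vehicle livers of both ages overlapped at this locus. Vehicle livers of 27 weeks against 9 weeks had 2 of 25 loci higher and 0 lower, beside 4.69% higher and 7.68% lower among all loci, and both were grid2ipb loci (log2 fold changes 1.19, SE 0.33, and 0.81, SE 0.22). Both of these calls were lost without MC7 (log2 fold changes 1.01 and 0.69) or MC8 (1.1 and 0.73) of 27 weeks, and likewise without MC2, MC3, MC4 or MC5 of 9 weeks, though without MC2 another locus was called. In MC7, the highest, the summed skeletal muscle markers were also highest of the group (123 RPKM against a median of 54.1), and their part was not tested.

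In untreated livers, 39 weeks against 5 weeks, 2 of 24 loci were higher and 1 lower, beside 5.22% higher and 6.77% lower among all loci. grid2ipb Nfu_g_1_023067 had 0.22, 0.33, 1.09, 0.32 and 0.68 RPKM at 39 weeks against 0.18, 0.15, 0.24, 0.16 and 0.14 RPKM at 5 weeks (log2 fold change 1.66, SE 0.49, adjusted p = 0.031). GRM4 Nfu_g_1_001448 gave 2.63 (SE 0.74, adjusted p = 0.023) from very low levels and grin2bb Nfu_g_1_019702 gave -1.79 (SE 0.55, adjusted p = 0.035). No locus was called without JM101 or JM98 of 5 weeks. The call at grin2bb was also lost without JM1, JM12, JM15 or JM18 of 39 weeks or JM97 of 5 weeks (-1.84 to -1.48), that at grid2ipb without JM13, JM18 or JM100, and that at GRM4 without JM12 or JM103. The abundant gria3a had 9.13, 16.1, 12.1, 13.3 and 15.6 RPKM at 39 weeks and 3.57, 15.9, 12.7, 15.8 and 11.2 RPKM at 5 weeks, with overlap.

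In skin, 0 of 29 loci passed for rotenone against vehicle at 27 weeks in edgeR's quasi-likelihood test, while 12.3% of all loci did. None had an unadjusted p under 0.05, DESeq2 called 0, and the lowest p was at gria3b (log2 fold change -0.83, SE 0.43, adjusted p = 0.23). For age in vehicle skin edgeR also called 0 of 29, beside 10.5% of all loci. There 5 loci had an unadjusted p under 0.05, DESeq2 called 2, and the lowest p was at GRM2 (1 of 2) (1.64, SE 0.52, adjusted p = 0.058).

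Untreated skin at 39 weeks against 5 weeks had 4 of 27 loci lower and 2 higher, beside 28.9% lower and 25.6% higher among all loci. gria3a, the one receptor locus with a skin group mean above 1 RPKM, had 0.21, 0.65, 0.53, 0.40 and 0.90 RPKM at 39 weeks against 1.09, 1.70, 1.73, 2.65 and 2.96 RPKM at 5 weeks, with no overlap (log2 fold change -1.59, SE 0.39, adjusted p = 0.0016). At 12 weeks 1 library, JM109, had 9.81 RPKM and the others 2.78 to 4.37 RPKM. In JM109 the summed hepatocyte markers, a list chosen after the data were seen, were 11068 RPKM against a group median of 115, and their part was not tested. GRIK3 Nfu_g_1_011050 (-1.93, SE 0.52, adjusted p = 0.0031) and gria3b (-1.36, SE 0.49, adjusted p = 0.023) gave the next largest log2 fold changes named, at low levels. The call at gria3b was lost without JM1 (-1.19) or JM15 (-1.25) of 39 weeks or JM95 (-1.21) of 5 weeks.

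In tail fin, 20 weeks against 10 weeks within the same fish had 5 of 30 loci higher and 6 lower, beside 11.3% higher and 12.7% lower among all loci. grid2ipb Nfu_g_1_023067 was higher in the later clip in 38 of 45 fish (log2 fold change 0.60, SE 0.10, adjusted p = 1.8e-05), in 23 of 30 in batch 1 and 15 of 15 in batch 2. gria3a ran from 1.80 to 13.4 RPKM at 20 weeks with a median of 6.04, against 2.47 to 14.3 RPKM at 10 weeks with a median of 6.35. It was lower in the later clip in 32 of 45 fish (20 of 30 in batch 1 and 12 of 15 in batch 2), with a log2 fold change of -0.32 (SE 0.09, adjusted p = 0.0048), and the ranges at both ages overlapped almost wholly.

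The largest log2 fold changes in fin were at GRM4 Nfu_g_1_001448 (0.76, SE 0.15, adjusted p = 0.00013, higher in 37 of 45 fish), gria2b Nfu_g_1_004749 (-0.69, SE 0.20, adjusted p = 0.0093, lower in 31 of 45) and gria3b (0.64, SE 0.13, adjusted p = 0.00017, higher in 35 of 45). These loci were low in fin. Median levels at 20 and 10 weeks were 0.10 and 0.07 RPKM at GRM4 and 0.02 and 0.04 RPKM at gria2b. At gria3b they were 0.52 and 0.38 RPKM. Fish of group 3, the longest-lived, did not differ from those of group 1, the shortest-lived, at any of the 30 loci by edgeR's quasi-likelihood test. This was so at 10 weeks, at 20 weeks and for the change between clips, and 0% of all loci differed in each of these. At an unadjusted p under 0.05 there were 0, 1 and 0 receptor loci in these 3 comparisons, DESeq2 called 0 at each age, and the fits within batch 1 or batch 2 alone also called 0. The lowest p at 20 weeks was at GRIK5 (1 of 2) Nfu_g_1_010180 (log2 fold change 0.70, SE 0.34, adjusted p = 0.9996), at 10 weeks at grid2ipb Nfu_g_1_023067 (0.49, SE 0.26, adjusted p = 0.88) and for the change at grm3 (-0.68, SE 0.36, adjusted p = 0.995).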

How the data were processed

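RNA of brain, liver and skin (2.5 µg per library) and of tail fin clips (1 µg) was sequenced after TruSeq preparation, per the labels' protocols. The submitters' processing notes name CASAVA 1.8.0 and 1.8.2, bcl2fastq 1.8.4, TopHat2 2.0.6 and featureCounts 1.4.3-p1, while no genome build is given in the sources used here. The authors deposited raw read counts per locus, and beside them the authors' RPKM, which equals the count over the library total and the locus length. The handling of strand and of multiply mapped reads was not stated either.

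Counts were tested with edgeR 4.0.16 (R 4.3.3; TMM, filterByExpr by group, robust quasi-likelihood test), on all loci that passed the filter, with 1 fit per tissue and arm, so that groups share 1 estimate of the spread. Benjamini-Hochberg adjustment ran over all loci tested. Brain against liver and skin used the 9-week vehicle fish. Fins took fish as a block between ages and batch as a term between lifespan groups. DESeq2 1.42.0, RLE size factors, no filter, gene length offsets, fits on the compared groups only and leaving out each library were the alternatives. RPKM served for levels only. The fits were tested on simulated data. The members, lists and tests were chosen with earlier results of these data known, and the marker lists for hepatocytes and testis and the trend removal after these results were seen. Loci named are those called in the brain contrasts (6 largest each way where over 12 were called), the most abundant per family with its copies, all grin1, grin2a and grin2b loci, and in other tissues the 3 largest called changes per contrast or the lowest p where none was called. Loci named beyond these were chosen after their values were seen.

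Same-numbered samples of the treatment arm are tissues of 1 fish, and the fin clips of 1 fish share its number, per the labels. Deviations from the group means correlated by -0.01 to 0.20 between brain and skin, -0.05 to 0.19 between brain and liver, and -0.01 to 0.75 between fin clips (median 0.23). No 2 brain libraries of a group agreed within counting noise. No deposited column was left without a sample. A few loci are not reported by name or drawn here, and all counts include them.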

Additional observations from a re-analysis of the deposited data

Results flagged for a closer look

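Of 125 groups of 4 to 10 samples in which the named loci were tested for a sample far from its group, 21 held one. Chance gives about 1 in 20 for independent groups, but loci of the same libraries are not independent, so the shares cannot be compared. Some loci were named because they were called without MC10, which favours flags for MC10. In 15 of the 21 the far sample was vehicle brain MC10, lowest of the 27-week vehicle group by a wide gap. Its levels were 69.2 RPKM at grin1a Nfu_g_1_018335 and 26.0 RPKM at grin1a Nfu_g_1_017230, 37.3 RPKM at gria2b Nfu_g_1_004749 and 14.2 RPKM at gria2b Nfu_g_1_013739, and 0.76 RPKM at gria1a. For kainate receptors they were 9.68 RPKM at GRIK3 Nfu_g_1_011050, 0.15 RPKM at GRIK3 Nfu_g_1_011118, 0.17 RPKM at grik4 Nfu_g_1_000591 and 1.32 RPKM at grik4 Nfu_g_1_017959. They were 9.95 RPKM at grin2ab, 2.98 RPKM at grin2db and 0.07 RPKM at grin3b, and 0.77 RPKM at GRID1 (1 of 2) Nfu_g_1_000962, 1.64 RPKM at GRID1 (2 of 2) Nfu_g_1_000989 and 12.9 RPKM at grid2ipb Nfu_g_1_023067.

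The other flags were single libraries high in their group. Rotenone brain MR28 had 0.25 RPKM at grik4 Nfu_g_1_014765, against 0.14 RPKM in the next. Vehicle brain MC1 of 9 weeks had 23.4 RPKM at grid2ipb Nfu_g_1_023067, against 18.1 RPKM in the next. In untreated skin, JM109 of 12 weeks had 9.81 RPKM at gria3a (next 4.37) and JM91 of 20 weeks 0.54 RPKM at gria3b (next 0.19). At GRIK3 Nfu_g_1_011050, rotenone skin MR30 had 0.25 RPKM (next 0.10) and vehicle skin MC7 of 27 weeks 0.27 RPKM (next 0.11). In these last skins the summed testis germ-cell markers, chosen after the data were seen, were 336 RPKM in MR30 (group median 1.08) and 171 RPKM in MC7 (group median 3.34), and their part was not tested.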

How the results depend on the processing

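No receptor locus was called in opposite directions in different settings of one comparison. The counts below are of receptor loci, and most are given without the share over all loci in that setting. The rotenone count of 8 loci at 27 weeks became 15 with DESeq2, 4 with only the 2 groups fitted, 27 with MC10 and its trend removed and 30 without MC10, and ran from 4 to 30 as each library was left out. The age count of 0 became 1 with gene length offsets and 9 without MC10 (range 0 to 9). Against 9 weeks the rotenone count of 9 became 15 with DESeq2 and 22 with only the 2 groups fitted (range 4 to 9 on leaving out a library). In liver, without the filter on low counts, rotenone gave 6 in place of 3 (leaving out a library, 3 to 4) and age in vehicle 1 in place of 2 (0 to 2). Vehicle skin age gave 2 with DESeq2 and 1 without MC7 (0 to 1). Untreated liver ran from 0 to 3, with 1 left without JM12 and 0 without JM101 or JM98.

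Of the 8 loci that fell with rotenone, 4 did so in each of the 10 settings that left out 1 vehicle or rotenone brain of 27 weeks: grin1a Nfu_g_1_017230, grin2bb Nfu_g_1_019702, grin3b and grik4 Nfu_g_1_014765. With the fish as a replicate block, 54 loci differed between brain and skin and 50 between brain and liver, against 51 without it. With no replicate block the fin age comparison called 9 loci, 3 higher and 6 lower, against 11. The block changed no other call count printed here. The choice of RLE over TMM scaling moved the median of all loci by at most 0.056 on the log2 scale. Low loci such as the grik4 set, at 5.5 RPKM or less in every brain, carry few counts, and 5 fish per group limit all brain results.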
